A study of Homo sapiens with 6 samples.

Results

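The genes described here are NRF2 targets and antioxidant enzymes, set side by side in PC-3/Mc and its counterpart PC-3/S. Both are sublines of the established cell line PC-3, grown from the bone metastasis of a human prostate carcinoma. The group was defined by a list of 48 gene symbols, and a symbol counted as measured where the array's annotation gave it alone to at least 1 probe set. This held for 45 symbols with 93 probe sets, out of 19775 genes with such a probe set on the array. AKR1B1, PRDX5 and FTH1 had none and are not analysed here. Each line was measured on 3 one-colour oligonucleotide arrays (PC-3/Mc replicates 1 to 3 and PC-3/S replicates 1 to 3), from cells harvested before they were confluent; the labels name no treatment, and do not say how either subline was derived or whether it is a single clone. The series concerns tumor-initiating attributes and the epithelial-mesenchymal transition.

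NRF2, encoded by NFE2L2, is a transcription factor that KEAP1 holds in the cytoplasm and passes to the proteasome. Oxidants and electrophiles modify KEAP1, and NRF2 then enters the nucleus, pairs with small MAF proteins and binds antioxidant response elements, which BACH1 can occupy as a repressor. Its targets make glutathione and thioredoxin, supply NADPH, detoxify quinones, aldehydes and drugs, export conjugates and store iron; peroxidases, peroxiredoxins, superoxide dismutases and catalase, only some of them NRF2 targets, remove the oxidants themselves.

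Values are log2 expression, each difference is the PC-3/Mc mean less the PC-3/S mean, and every mean ± SD and difference ± SE rests on n = 3 arrays per line. Each gene was represented by its brightest probe set, and a gene was called at a limma p below 0.05 after Benjamini-Hochberg adjustment over all 19775 genes. A level on one probe set is not set against that on another. The labels call the replicates biological but do not say whether they came from separate cultures, so the p-values cover only the variation among these samples, which may be technical. In bulk RNA, fewer cells expressing a gene and less of its RNA per cell cannot be told apart. Arrays of the same line correlated at 0.995 to 0.997 across probe sets and arrays of different lines at 0.949 to 0.953. Of 4 epithelial markers, EPCAM, an epithelial adhesion gene, was at 11.88 ± 0.19 in PC-3/Mc, against 6.44 ± 0.22 in PC-3/S (5.43 ± 0.13, 43.3-fold higher, limma adjusted p = 1.5e-10), so that it was bright in PC-3/Mc alone. The lines thus differed in an epithelial marker by more than in any member, and its part in the results below was not tested. The keratin genes were bright in both lines: KRT18 averaged 12.48 in PC-3/Mc, against 11.32 in PC-3/S, and KRT8 9.81 in PC-3/Mc, against 8.78 in PC-3/S, while KRT19 was at 11.28 in PC-3/Mc, against 11.76 in PC-3/S. The highest reading of CTNNA1, a gene deleted in PC-3, was 5.18 and served as a rough floor. Of 10 measured markers of leukocytes, endothelium, smooth muscle, fibroblasts and red cells, 6 lay at or under this floor in both lines, 2 were called higher in PC-3/Mc and 1 lower, and the mean level of all 10 per array was 4.97 to 5.16 in PC-3/Mc, against 4.95 to 5.09 in PC-3/S. The brightest was PECAM1, an endothelial adhesion gene, at 7.18 ± 0.04 in PC-3/Mc, against 6.58 ± 0.09 in PC-3/S. The part of other cells in the results below was not tested.

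The promoters of 4 members are shown first because they carry letters of the antioxidant response element and belong to genes that were higher, lower or not called. The core searched was TGACNNNGC on both strands, in windows from 250 bases before to 50 bases after the annotated gene start (RefSeq, GRCh38.p14). Each sequence below runs 5′ to 3′ along the gene's own strand, in lower case with the matching bases in capitals. GCLM, called higher in PC-3/Mc, lies on the minus strand at chr1:93909381-93909680, and its match, on the opposite strand, begins 34 bases before the start. GSTP1, also called higher, lies on the plus strand at chr11:67583562-67583861 with a match 66 bases before the start. TXNRD1, called lower, has windows for 2 annotated starts on the plus strand; the one shown, chr12:104215529-104215828, has matches 99 and 8 bases before the start. The other, chr12:104286782-104287081, has 1 match, 102 bases before its start. ME1, not called, lies on the minus strand at chr6:83431002-83431301, with a match 137 bases before the start and another inside the gene.
GCLM: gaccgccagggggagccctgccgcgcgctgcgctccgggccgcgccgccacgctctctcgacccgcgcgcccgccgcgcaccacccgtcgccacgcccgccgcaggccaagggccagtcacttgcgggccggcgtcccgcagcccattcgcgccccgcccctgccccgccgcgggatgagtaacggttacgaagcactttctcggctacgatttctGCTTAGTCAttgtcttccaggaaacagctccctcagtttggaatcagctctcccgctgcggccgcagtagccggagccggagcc
GSTP1: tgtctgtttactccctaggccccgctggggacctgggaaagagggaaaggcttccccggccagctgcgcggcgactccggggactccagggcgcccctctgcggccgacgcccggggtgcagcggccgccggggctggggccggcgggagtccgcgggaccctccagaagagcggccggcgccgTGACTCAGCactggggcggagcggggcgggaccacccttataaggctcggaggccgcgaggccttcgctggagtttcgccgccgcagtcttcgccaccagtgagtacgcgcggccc
TXNRD1: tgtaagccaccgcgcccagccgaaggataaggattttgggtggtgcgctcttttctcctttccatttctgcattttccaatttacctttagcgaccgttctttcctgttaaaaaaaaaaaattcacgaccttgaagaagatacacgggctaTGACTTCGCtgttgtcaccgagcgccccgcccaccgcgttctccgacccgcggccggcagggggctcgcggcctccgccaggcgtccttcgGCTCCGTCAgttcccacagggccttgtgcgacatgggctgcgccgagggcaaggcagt
ME1: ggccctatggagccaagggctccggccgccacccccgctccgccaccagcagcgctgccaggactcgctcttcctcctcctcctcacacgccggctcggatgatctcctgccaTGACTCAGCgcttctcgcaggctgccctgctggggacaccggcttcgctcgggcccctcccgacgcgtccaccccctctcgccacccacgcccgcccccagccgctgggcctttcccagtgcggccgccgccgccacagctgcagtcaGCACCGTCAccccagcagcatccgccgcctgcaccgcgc
A match describes letters only, not a bound site. Windows were found for 38 of the 48 symbols, and 9 of the 38 (23.7%) held the core in at least 1 window, against 16.1% of all 27305 genes with a window. By call, it was found in 5 of 15 members higher in PC-3/Mc, 1 of 10 lower and 3 of 11 not called. Beside the members shown, the 5 higher ones were KEAP1, GSTO1 and MGST1, and the others not called were PGD and GPX2. No match was found in the windows of NQO1, SRXN1, OSGIN1, UGDH and GCLC, and HMOX1 had no window. Sequence outside the windows was not searched, so these counts do not tell which members have an element.

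Among the 45 genes measured, 22 stood higher in PC-3/Mc, 12 lower, and 11 were not called. The share called was thus 75.6%, where 45.9% of all genes were called; higher members made up 48.9% against 23.2% of all genes, and lower members 26.7% against 22.7%. Members were brighter than most genes, with a median level of 9.88 against 5.98 for all genes, and bright genes were called more often. Among genes above the floor in at least 1 line, 64.2% were called, 33.5% higher and 30.7% lower. At or above a level of 9.88, 69.9% of 1777 genes were called, 41.1% higher and 28.8% lower, beside 20 of 23 members (87%), 15 higher (65.2%) and 5 lower (21.7%). Counts of members by role below are to be read beside these shares. Differences of at least 2-fold were found for 9 called members (20%), 5 higher and 4 lower, where 11.5% of all genes, 5.88% higher and 5.58% lower, reached that size. At or above a level of 9.88 it was 3 of 23 members (13%), against 10.7% of genes. The count of 9 fell to 6 with quantile normalization, where GCLM (0.94), CAT (0.99) and GSTM3 (0.94) came under 2-fold. It was also 6 with the mean of probe sets, and 6 without probe sets of the kinds that can bind several transcripts. The median difference was 0.22 over the members and -0.03 over all genes. For 37 members (82.2%) no array of one line overlapped the other, against 53.1% of all genes. At or above a level of 9.88 this held for 22 of 23 members (95.7%), against 83% of genes.

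**Figure D1:**
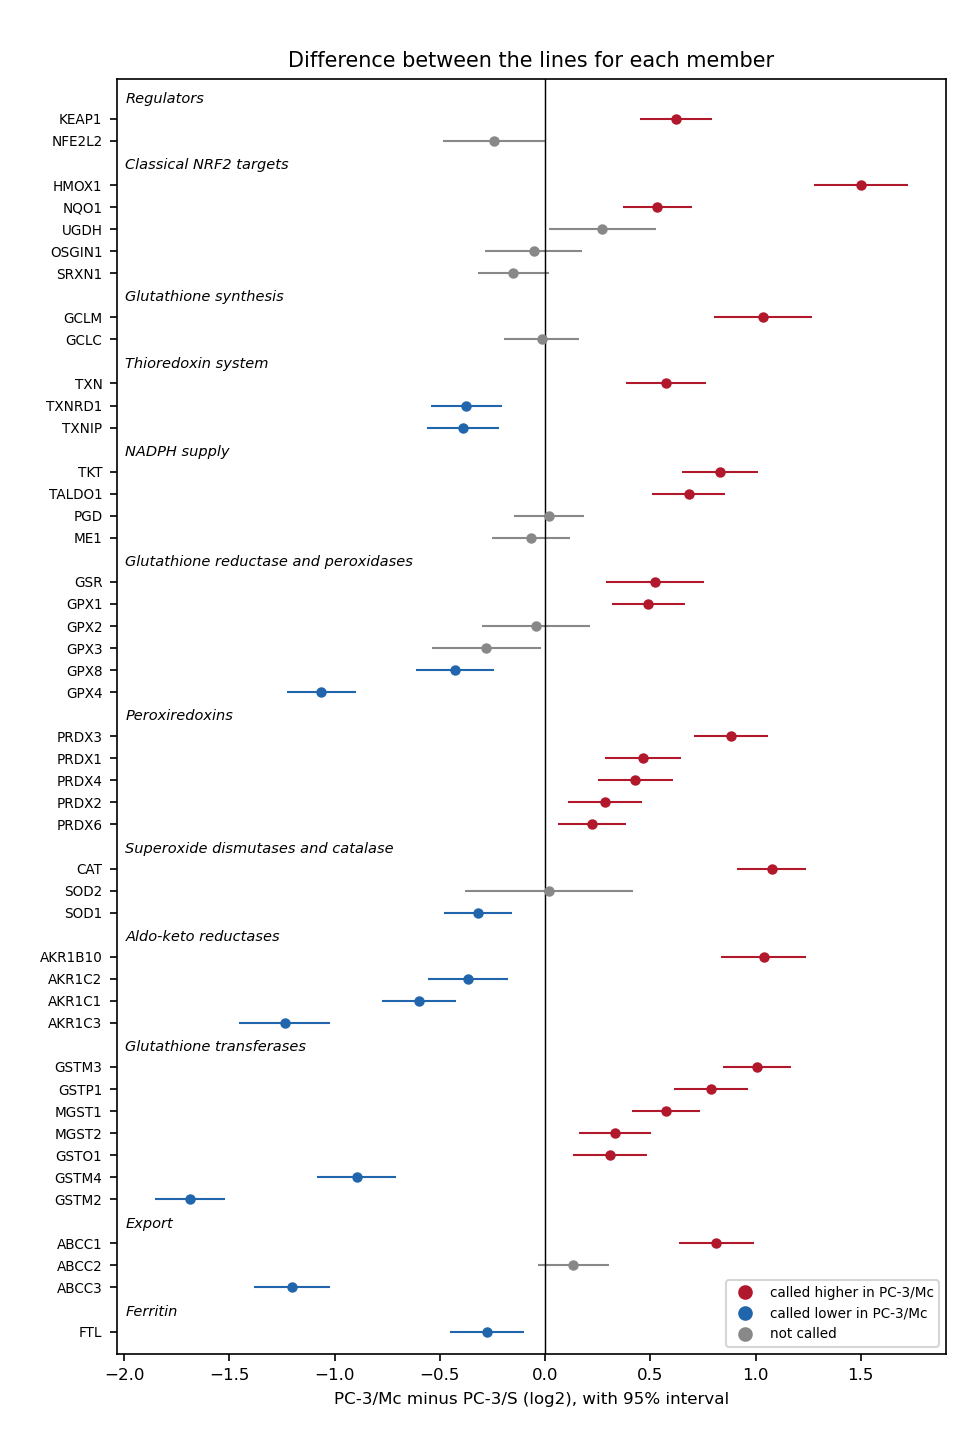
Difference between the lines for each of the 45 measured members (log2, PC-3/Mc less PC-3/S, horizontal axis), grouped by role. Points are differences of means over n = 3 arrays per line and bars their 95% intervals from limma, red for members called higher in PC-3/Mc, blue for lower and grey for not called; HMOX1 stands farthest to the right at 1.50 and GSTM2 farthest to the left at -1.69.

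Of the 2 central regulators, KEAP1 was called higher in PC-3/Mc and NFE2L2 was not called. NFE2L2 read 9.95, 10.04 and 9.75 in PC-3/Mc, against 10.07, 10.05 and 10.35 in PC-3/S. The groups came close without overlapping, and the difference of -0.24 ± 0.11 did not pass the test (adjusted p = 0.097, 95% interval -0.48 to -0.0008). It passed with quantile normalization (-0.33, adjusted p = 0.0126) and with a variance trend in limma (adjusted p = 0.0183). It did not pass with median centring (-0.19, adjusted p = 0.23) or without PC-3/S replicate 3 (-0.14, adjusted p = 0.316). The other NFE2L2 probe set above the floor went the other way and was not called (0.11). KEAP1, the adaptor that targets NRF2 for degradation, read 10.25, 10.12 and 10.21 in PC-3/Mc, against 9.62, 9.54 and 9.54 in PC-3/S. All PC-3/Mc arrays lay above all PC-3/S arrays, and the difference was 0.62 ± 0.08 (1.54-fold, adjusted p = 5.0e-05).

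Among 5 classical NRF2 targets, 2 were higher in PC-3/Mc and 3 were not called. HMOX1, the inducible haem oxygenase that releases iron, carbon monoxide and biliverdin, read 8.30, 8.19 and 8.51 in PC-3/Mc, against 6.79, 6.74 and 6.95 in PC-3/S. The groups were far apart, and the difference of 1.50 ± 0.10 (2.83-fold, adjusted p = 4.4e-07) was the largest rise among the members. NQO1, a quinone reductase often used as an NRF2 readout, read 11.07, 11.05 and 11.11 in PC-3/Mc, against 10.55, 10.51 and 10.57 in PC-3/S, a smaller difference of 0.53 ± 0.07 (1.45-fold, adjusted p = 0.00012). Its 3 probe sets gave 0.53 to 0.63, all called. Sulfiredoxin (SRXN1), which restores over-oxidised peroxiredoxins, was at 10.10 ± 0.06 in PC-3/Mc, against 10.25 ± 0.04 in PC-3/S (-0.15, 95% interval -0.32 to 0.02, adjusted p = 0.14). Its PC-3/Mc arrays all lay below its PC-3/S arrays. With quantile normalization the difference passed as lower (-0.24, adjusted p = 0.0382), as it did with a variance trend (adjusted p = 0.0408). With median centring it did not pass (-0.10, adjusted p = 0.351). OSGIN1, an oxidative stress growth inhibitor, was at 6.13 ± 0.13 in PC-3/Mc, against 6.19 ± 0.17 in PC-3/S with overlapping arrays (-0.05, 95% interval -0.28 to 0.18). UGDH, which makes the UDP-glucuronic acid used in conjugation, was at 9.50 ± 0.15 in PC-3/Mc, against 9.23 ± 0.20 in PC-3/S (0.27, adjusted p = 0.079). It passed without PC-3/S replicate 3 (0.37, adjusted p = 0.0233) and with a variance trend (adjusted p = 0.0163). It did not pass without PC-3/S replicate 2 (0.17, adjusted p = 0.286) or with quantile normalization (0.17, adjusted p = 0.204).

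Of the subunits of glutamate-cysteine ligase, the rate-limiting enzyme of glutathione synthesis, GCLM was called higher in PC-3/Mc and GCLC was not called. GCLM, the modifier subunit, read 9.93, 10.20 and 9.97 in PC-3/Mc, against 8.88, 8.95 and 9.17 in PC-3/S. It was 2.05-fold higher (1.04 ± 0.10, adjusted p = 1.0e-05), and its other probe sets gave 1.26 and 0.67, both called. GCLC, the catalytic subunit, was at 9.62 ± 0.08 in PC-3/Mc, against 9.64 ± 0.05 in PC-3/S, with overlapping arrays (-0.02, 95% interval -0.19 to 0.16, adjusted p = 0.89). The difference of the GCLM and GCLC signals within an array was 1.05 larger in PC-3/Mc, with no overlap between the lines (exact two-sided permutation p = 0.1, the smallest that 3 against 3 arrays allow). This was 1 of 6 within-array comparisons between members of one role, chosen after their values were seen. Each had an exact permutation p = 0.1 and an adjusted p of 0.1, so none could pass a threshold of 0.05.

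In the thioredoxin system, thioredoxin and its reductase moved in opposite directions. TXN, the small dithiol protein that reduces peroxiredoxins, read 12.25, 12.40 and 12.17 in PC-3/Mc, against 11.66, 11.66 and 11.77 in PC-3/S (0.57 ± 0.09, 1.49-fold, adjusted p = 0.00021). TXNRD1, the selenoprotein that uses NADPH to reduce thioredoxin, read 12.88, 12.93 and 12.95 in PC-3/Mc, against 13.33, 13.33 and 13.23 in PC-3/S. Neither gene's arrays overlapped, and TXNRD1 was lower by a difference of -0.37 ± 0.08 (1.30-fold lower, adjusted p = 0.0018). The TXN minus TXNRD1 signal changed by 0.95 between the lines, or by 0.68 with the mean of probe sets. TXNIP, which binds and inhibits thioredoxin, was at 9.97 ± 0.04 in PC-3/Mc, against 10.36 ± 0.07 in PC-3/S (-0.39, adjusted p = 0.0016). Its other 2 probe sets pointed the same way but were not called (-0.24 and -0.16). The mean of the TXNRD1 probe sets, one of which was under the floor, was not called (-0.17, adjusted p = 0.0594).

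Of 4 genes tied to NADPH supply, the 2 of the non-oxidative pentose phosphate arm were called higher in PC-3/Mc and the other 2 were not called. TKT, transketolase of the non-oxidative arm, read 11.42, 11.31 and 11.40 in PC-3/Mc, against 10.52, 10.47 and 10.64 in PC-3/S (0.83 ± 0.08, 1.78-fold, adjusted p = 8.4e-06). TALDO1, transaldolase of the same arm, read 11.97, 11.84 and 11.98 in PC-3/Mc, against 11.22, 11.23 and 11.29 in PC-3/S (0.68 ± 0.08, 1.60-fold, adjusted p = 2.9e-05). Both were higher on every PC-3/Mc array, and the 3 TKT probe sets gave 0.83 to 1.24. PGD, the NADPH-producing phosphogluconate dehydrogenase of the oxidative arm, was at 9.47 ± 0.05 in PC-3/Mc, against 9.45 ± 0.03 in PC-3/S (0.02, 95% interval -0.15 to 0.19). ME1, cytosolic malic enzyme, which also makes NADPH, was at 10.41 ± 0.07 in PC-3/Mc, against 10.48 ± 0.09 in PC-3/S (-0.07, 95% interval -0.25 to 0.12). The arrays of both overlapped, and neither was called. The upper bounds of these intervals lay below the differences of TKT and TALDO1.

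**Figure D2:**
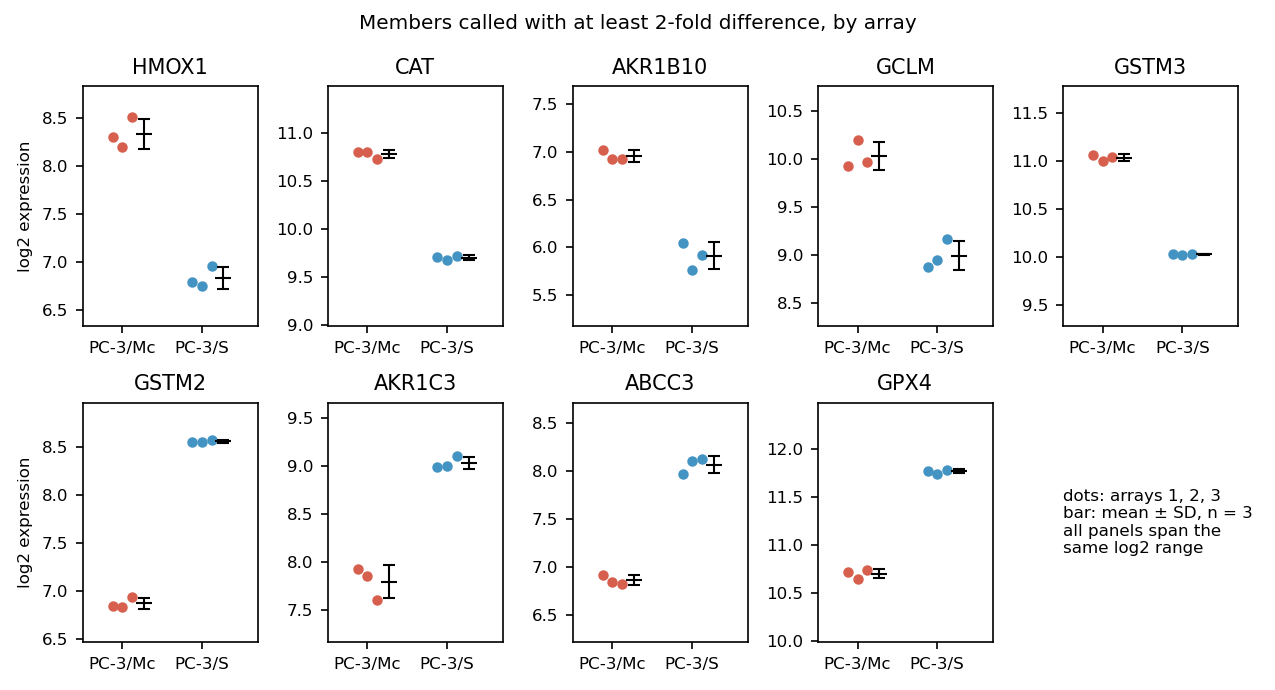
log2 expression of the 9 members called with at least 2-fold difference on each array (dots, replicates 1 to 3), PC-3/Mc on the left and PC-3/S on the right of each panel, with mean ± SD (n = 3) as bars. Panels span the same log2 range; the upper row holds the 5 members higher in PC-3/Mc and the lower row the 4 members lower in PC-3/Mc, and the arrays of the lines overlap in no panel.

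Of 6 genes for glutathione reductase and the glutathione peroxidases, 2 were called higher in PC-3/Mc, 2 lower and 2 were not called. GPX4, the selenoperoxidase that reduces lipid hydroperoxides in membranes and restrains ferroptosis, read 10.72, 10.65 and 10.74 in PC-3/Mc, against 11.78, 11.74 and 11.78 in PC-3/S. It was 2.09-fold lower (-1.06 ± 0.07, adjusted p = 6.0e-07), a gap far wider than the spread within either line. GPX1, the cytosolic peroxidase for hydrogen peroxide, read 11.36, 11.34 and 11.41 in PC-3/Mc, against 10.97, 10.83 and 10.85 in PC-3/S (0.49 ± 0.08, 1.40-fold higher, adjusted p = 0.00033). The GPX1 minus GPX4 signal changed by 1.55 between the lines. GSR, which regenerates reduced glutathione, was higher at 7.98 ± 0.20 in PC-3/Mc, against 7.46 ± 0.08 in PC-3/S (0.52 ± 0.11, adjusted p = 0.0018), and its second probe set gave 0.83. GPX8, a peroxidase of the endoplasmic reticulum membrane, was at 9.62 ± 0.07 in PC-3/Mc, against 10.05 ± 0.10 in PC-3/S (lower, -0.43 ± 0.08, adjusted p = 0.0014). Its dimmer probe set was not called (0.07), and the mean of both was not called either (-0.18, adjusted p = 0.111). GPX2, a gastrointestinal form, was at 5.68 ± 0.24 in PC-3/Mc, against 5.72 ± 0.07 in PC-3/S, not called (-0.04, 95% interval -0.30 to 0.21). GPX3, the secreted plasma form, lay under the floor at 4.24 ± 0.09 in PC-3/Mc, against 4.52 ± 0.24 in PC-3/S, and was not called (adjusted p = 0.077); without PC-3/S replicate 3 it passed as lower (-0.38, adjusted p = 0.0210).

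All 5 measured peroxiredoxins, thiol peroxidases that are recharged mostly by thioredoxin, were called higher in PC-3/Mc. Their median level was 12.57. Of all genes at or above the members' median level, 69.9% were called and 41.1% were called higher. PRDX3, the mitochondrial form, read 11.50, 11.56 and 11.40 in PC-3/Mc, against 10.57, 10.59 and 10.65 in PC-3/S, and was 1.84-fold higher (0.88 ± 0.08, adjusted p = 3.9e-06). Its second probe set, under the floor, was not called (-0.14), and the mean of both was 0.37, still called. PRDX1, a cytosolic form and NRF2 target, read 13.47, 13.56 and 13.54 in PC-3/Mc, against 13.15, 13.07 and 12.95 in PC-3/S (0.47 ± 0.08, adjusted p = 0.00069). PRDX4, the form of the secretory pathway, was at 12.37 ± 0.05 in PC-3/Mc, against 11.94 ± 0.08 in PC-3/S (0.43 ± 0.08, adjusted p = 0.0010). These 3 calls stood without each array in turn. PRDX2, abundant in red cells, was at 12.71 ± 0.06 in PC-3/Mc, against 12.43 ± 0.07 in PC-3/S (0.29 ± 0.08, adjusted p = 0.012). Its call was lost without PC-3/S replicate 1 (adjusted p = 0.0557) or replicate 2 (adjusted p = 0.0504), and its 3 dimmer probe sets, at 0.05 to 0.14, were not called. PRDX6, which also has phospholipase activity, was at 13.45 ± 0.03 in PC-3/Mc, against 13.22 ± 0.03 in PC-3/S (0.22 ± 0.07, adjusted p = 0.029). The PRDX6 call was lost without any 1 array other than PC-3/Mc replicate 2, at adjusted p = 0.0558 without PC-3/Mc replicate 3 to 0.0879 without PC-3/S replicate 3. Its second probe set, fitted among all probe sets, was called at 0.44 ± 0.08.

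Catalase and the cytosolic superoxide dismutase went opposite ways. CAT, the peroxisomal enzyme that splits hydrogen peroxide, read 10.80, 10.81 and 10.73 in PC-3/Mc, against 9.71, 9.68 and 9.72 in PC-3/S. Every PC-3/Mc array lay about 1 log2 unit above, so that CAT was 2.11-fold higher (1.08 ± 0.07, adjusted p = 5.3e-07), and its other probe set above the floor gave 1.27. SOD1, the copper-zinc enzyme that turns superoxide into hydrogen peroxide, read 12.17, 12.14 and 12.17 in PC-3/Mc, against 12.52, 12.45 and 12.47 in PC-3/S (-0.32 ± 0.07, adjusted p = 0.0040). The CAT minus SOD1 signal changed by 1.40, or by 1.16 with the mean of probe sets and 1.32 with quantile normalization. SOD2, the mitochondrial manganese enzyme, could be read only on 1 dim probe set, since its other probe sets carry a further symbol. That probe set read 6.74, 6.72 and 5.97 in PC-3/Mc, against 6.57, 6.46 and 6.35 in PC-3/S, with the third PC-3/Mc array the lowest of the 6. SOD2 was not called (0.02, 95% interval -0.38 to 0.42); without PC-3/Mc replicate 3 it was called higher (0.27, adjusted p = 0.0346).

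Of the aldo-keto reductases, which reduce aldehydes, ketones and steroids with NADPH, AKR1B10 was higher in PC-3/Mc and the 3 AKR1C genes were lower. AKR1B10, a retinal and aldehyde reductase, read 7.02, 6.92 and 6.92 in PC-3/Mc, against 6.05, 5.77 and 5.92 in PC-3/S (1.04 ± 0.09, 2.05-fold higher, adjusted p = 3.3e-06). AKR1C3, which makes testosterone from androstenedione and also acts on prostaglandins, read 7.93, 7.86 and 7.60 in PC-3/Mc, against 9.00, 9.00 and 9.11 in PC-3/S. No arrays overlapped for either gene, and AKR1C3 was 2.36-fold lower (-1.24 ± 0.10, adjusted p = 1.5e-06). AKR1C1 and AKR1C2, close relatives of AKR1C3 that inactivate progesterone and dihydrotestosterone, were lower as well, by -0.60 ± 0.08 (adjusted p = 8.6e-05) and -0.36 ± 0.09 (adjusted p = 0.0047). Their calls came from probe sets of the kind that can bind several related transcripts. With such probe sets left out, both rested on dim ones and were not called (0.0016 for AKR1C1 and 0.16 for AKR1C2). Signals of these near-identical genes, all on chromosome 10, may be shared between them.

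All 7 glutathione transferases of the list were called, 5 higher and 2 lower in PC-3/Mc. Of all genes 45.9% were called, and of genes above the floor 64.2%. GSTM2 read 6.85, 6.83 and 6.94 in PC-3/Mc, against 8.55, 8.55 and 8.58 in PC-3/S, the largest difference of any member (-1.69 ± 0.08, 3.22-fold lower, adjusted p = 2.0e-08). GSTM3 read 11.07, 11.00 and 11.04 in PC-3/Mc, against 10.03, 10.03 and 10.03 in PC-3/S (1.01 ± 0.07, 2.01-fold higher, adjusted p = 8.1e-07). Both are mu-class enzymes on chromosome 1 that conjugate glutathione to electrophiles. The GSTM3 minus GSTM2 signal changed by 2.70 between the lines, or by 2.03 with the mean of probe sets. GSTM4, another member of that class, was lower at 6.08 ± 0.08 in PC-3/Mc, against 6.98 ± 0.09 in PC-3/S (-0.90 ± 0.08, adjusted p = 6.0e-06), as was its second probe set at -1.12. A dim GSTM3 probe set, close to the floor, went against the bright one at -0.32 (adjusted p = 0.019 over all probe sets), and it was the one left when kinds that can bind several transcripts were dropped. Readings of GSTM2 and GSTM4 are uncertain, because the mu-class genes are near-identical and the GSTM2 probe set can bind relatives. GSTP1, the pi-class enzyme whose promoter is methylated in many prostate carcinomas, read 9.37, 9.43 and 9.53 in PC-3/Mc, against 8.64, 8.62 and 8.70 in PC-3/S (0.79 ± 0.08, 1.73-fold higher, adjusted p = 1.0e-05). MGST1, a membrane-bound transferase and peroxidase, was at 12.67 ± 0.01 in PC-3/Mc, against 12.09 ± 0.03 in PC-3/S (0.57 ± 0.07, adjusted p = 6.3e-05), and all 5 of its probe sets were called higher at 0.57 to 0.69. MGST2, a relative that also makes leukotriene C4, differed by 0.33 ± 0.08, and GSTO1, an omega-class enzyme, by 0.31 ± 0.08 (adjusted p = 0.0044 and 0.0074).

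Of the export pumps for glutathione and glucuronide conjugates, ABCC1 and ABCC3 were called in opposite directions. ABCC1, also known as MRP1, read 9.09, 8.98 and 8.90 in PC-3/Mc, against 8.15, 8.19 and 8.19 in PC-3/S (0.81 ± 0.08, 1.76-fold higher, adjusted p = 9.1e-06). ABCC3, also known as MRP3, read 6.92, 6.85 and 6.82 in PC-3/Mc, against 7.97, 8.11 and 8.13 in PC-3/S (-1.20 ± 0.08, 2.30-fold lower, adjusted p = 4.5e-07). The arrays of the lines were apart for both, and the ABCC1 minus ABCC3 signal changed by 2.02. That change was 1.39 with the mean of probe sets and 0.68 without kinds that can bind several transcripts. Of the 5 ABCC3 probe sets, 4 were lower at -1.20 to -0.66 and a dim probe set was not called (0.14). Only that dim probe set remained when kinds that can bind several transcripts were left out. ABCC2 lay under the floor at 4.31 ± 0.04 in PC-3/Mc, against 4.17 ± 0.06 in PC-3/S, and was not called (adjusted p = 0.19). FTL, the light chain of the iron store ferritin, read 12.65, 12.51 and 12.66 in PC-3/Mc, against 12.85, 12.88 and 12.91 in PC-3/S (-0.28 ± 0.08, adjusted p = 0.015). It was lower on both probe sets, but the call was lost without PC-3/Mc replicate 2 (-0.23, adjusted p = 0.0528).

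Several probe sets per member gave a further view within the same RNA. Among 22 members with more than 1 probe set above the floor, all such probe sets were called the same way for 12, some were called one way and the rest not for 6, and none were called for 3. Of the 22, GSTM3 alone had probe sets called both ways. Across all probe sets of the array, those under the floor included, 35.9% were called. That is a share of single probe sets, and agreement among probe sets was not counted for genes outside the list. Probe sets of 1 gene share the RNA of each array and are not replicates of the lines.

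**Figure D3:**
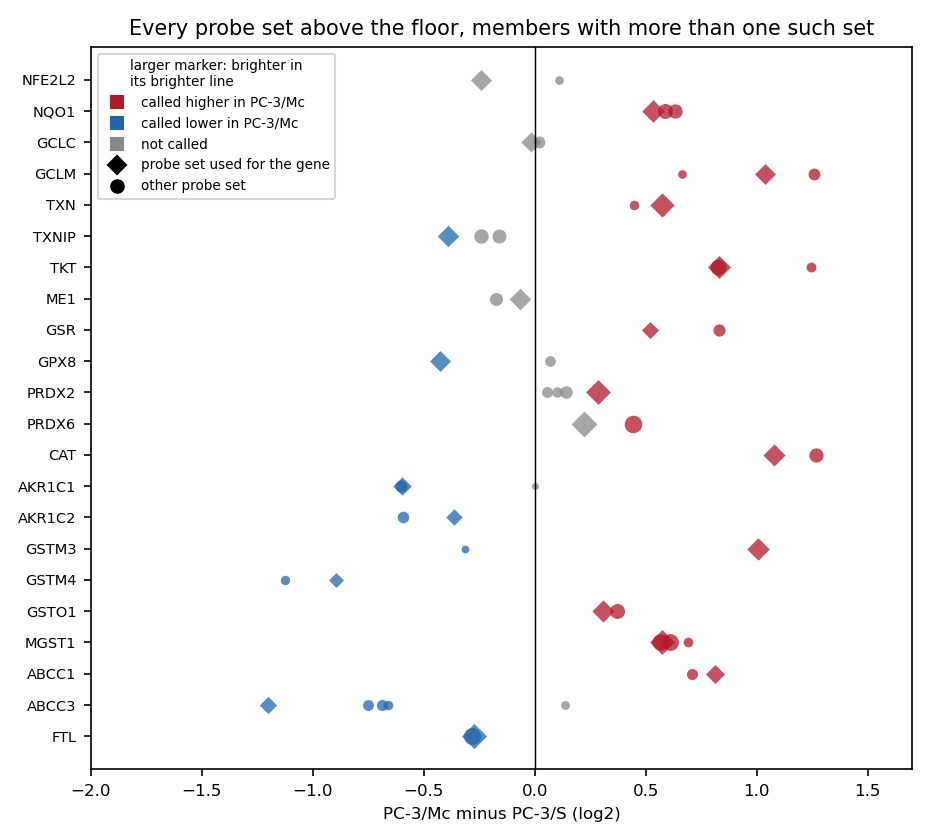
Difference between the lines (PC-3/Mc minus PC-3/S, log2, horizontal axis) for every probe set above the floor of 5.18 in the 22 members that have more than 1 such probe set. Diamonds are the probe sets used for the gene, circles the others, and larger markers are brighter; colours give the call from the fit over all probe sets (n = 3 arrays per line), in which the PRDX6 diamond at 0.22 was not called (adjusted p = 0.052).

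A list of 83 other genes of the pathway, 79 of them measured, gave 22 higher, 28 lower and 29 not called, a share called of 63.3% beside 45.9% of all genes and 64.2% of genes above the floor. At least 2-fold differences were mostly lower in PC-3/Mc, 15 against 2 higher (21.5% together), beside 5.58% of all genes lower and 5.88% higher. The median was -0.05. Of 11 other regulators none was higher and 6 (54.5%) were lower. Of all genes 23.2% were called higher and 22.7% lower, and of genes above the floor 33.5% and 30.7%. The counts by role below are to be read beside the same shares. BACH1, the haem-sensitive repressor of HMOX1, read 6.81, 6.97 and 6.34 in PC-3/Mc, against 8.45, 8.52 and 8.63 in PC-3/S (-1.83 ± 0.14, 3.55-fold lower, adjusted p = 1.5e-06). The mean of its probe sets gave -0.69, called but under 2-fold. MAFF, a small MAF partner, was at 9.37 ± 0.12 in PC-3/Mc, against 10.86 ± 0.06 in PC-3/S (-1.49 ± 0.09, adjusted p = 1.4e-07). NFE2L3, an NRF2 relative, lay at 6.85 ± 0.11 in PC-3/Mc, against 8.75 ± 0.15 in PC-3/S (-1.90 ± 0.10). SQSTM1, the autophagy receptor p62 that can sequester KEAP1, was at 10.67 ± 0.06 in PC-3/Mc, against 11.82 ± 0.08 in PC-3/S (-1.14 ± 0.08), but at -0.58 with the mean of its probe sets and -0.55 without those that can bind several transcripts.

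Genes of glutathione supply were mostly not called, 5 of 7. SLC7A11, the cystine transporter, was at 9.42 ± 0.08 in PC-3/Mc, against 9.38 ± 0.09 in PC-3/S (adjusted p = 0.77). CHAC1, which degrades glutathione, read 6.08, 5.88 and 6.09 in PC-3/Mc, against 8.77, 8.63 and 8.83 in PC-3/S, 6.61-fold lower and the largest difference on this list (-2.72 ± 0.09, adjusted p = 2.2e-09). Of 19 detoxifying enzymes 10 were lower and 5 higher. Epoxide hydrolase EPHX1 (-1.63), the carbonyl reductases CBR1 (-1.45) and CBR3 (-1.03), and the transferases GSTO2 (-1.32, or -0.81 with the mean of its probe sets) and GSTM1 (-1.15) were at least 2-fold lower on the probe set used. The GSTM1 probe set is of a kind that can bind several transcripts, so its signal may be shared with GSTM2 and GSTM4. NQO2, a quinone reductase related to NQO1, was 2.39-fold higher (1.26 ± 0.08), but on a probe set other than those that can bind several transcripts it was not called (-0.11, adjusted p = 0.384). Among 16 thioredoxin, glutaredoxin and repair genes 7 were higher and 5 lower, with GLRX (-1.42), a glutaredoxin, extracellular SOD3 (-1.32) and the stress-induced SESN2 (-1.03) at least 2-fold lower. NADPH supply gave 2 higher and 2 lower of 5, with mitochondrial IDH2 at -1.39 (-0.60 without probe sets that can bind several transcripts). The pump gene ABCC5 was 2.64-fold higher and BLVRB, a biliverdin reductase, 2.03-fold lower. Of 8 oxidant producers such as NADPH oxidases, 7 were not called and 5 lay under the floor in both lines.

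**Figure D4:**
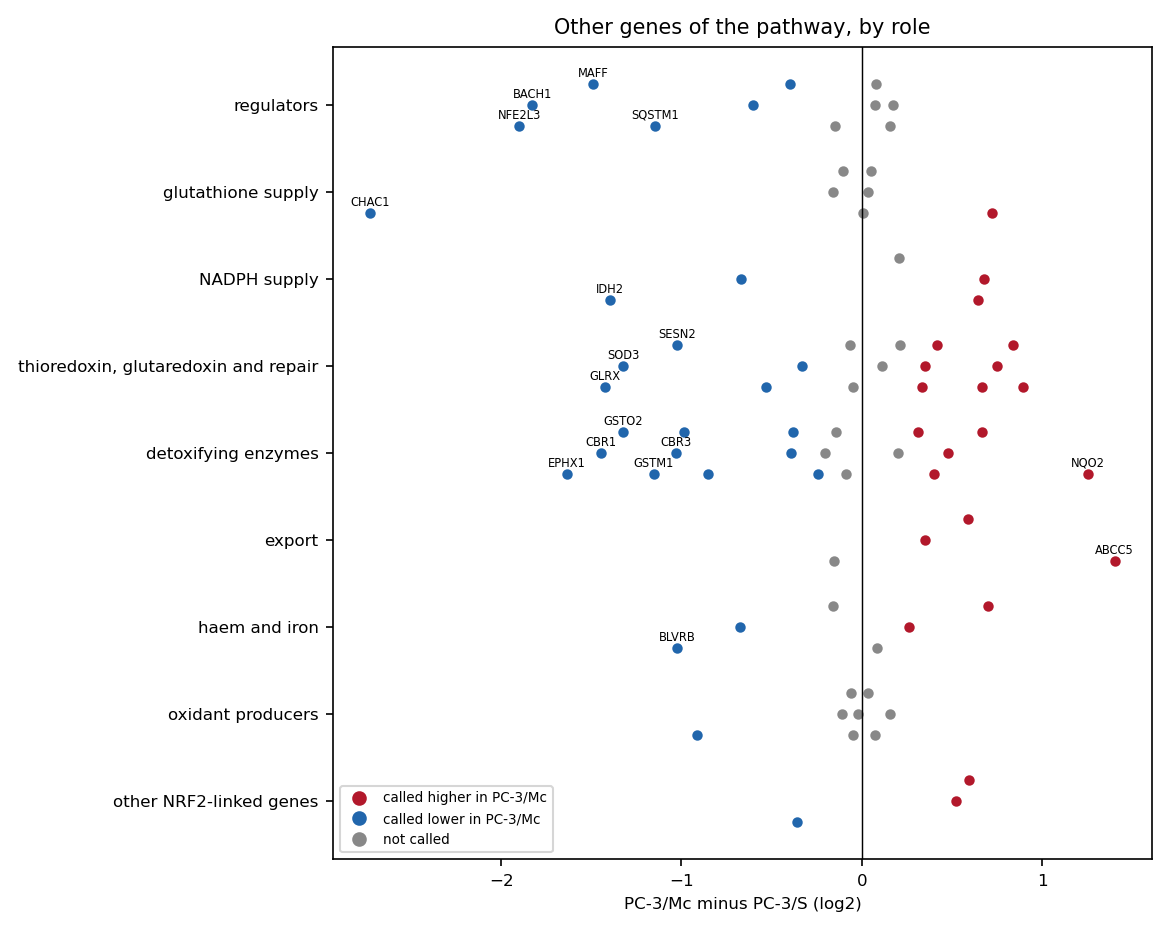
Difference between the lines (PC-3/Mc minus PC-3/S, log2, horizontal axis) for the 79 measured other genes of the pathway, in rows by role; the vertical offset within a row only separates points. Each point is a difference of means over n = 3 arrays per line, coloured by call, and the 17 genes called with at least 2-fold difference are named; 15 of them lie to the left, lower in PC-3/Mc.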

How the data were processed

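Log2 expression values of 54675 probe sets on 6 arrays were used as the authors deposited them; no source used here gives the background correction or normalization behind them. The log2 scale was settled from the values, which ran from 2.59 to 14.45 and are not centred per gene; how arrays were scaled stays unknown. Array medians were 4.98 to 5.09. Per the labels' protocols, RNA was column-purified and biotin-labelled. Besides 62 control probe sets, 41091 had 1 gene symbol, 1801 several and 11721 none; only the first named a gene. Gene IDs of 41037 were found in the RefSeq table, with 0 symbols to update.

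A gene with several probe sets was represented by the one brightest on average across the 6 arrays. Differences were tested with limma 3.58.1 (lmFit, eBayes, two-sided) in R 4.3.3 over 19775 genes, and again over all 54613 probe sets that are not controls, with Benjamini-Hochberg adjustment. The fitting step was run on simulated data with known differences as a check of the code. Precision is limited by how few arrays there are; the median SE was 0.092. The floor, 5.18, is the highest CTNNA1 reading, chosen after values were seen. All members are named; of the other genes, those called with an absolute log2 difference of at least 1. Members and lists were chosen with earlier results of these data known. Alternatives changed normalization, probe set choice, the filter, the variance model, a replicate block and single arrays.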

Additional observations from a re-analysis of the deposited data

How the results depend on the processing

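Of 34 called members, 25 kept direction and call under all 15 alternatives run or as many as gave them a value, and 9 did not. Of 22 other named genes 20 did; the exceptions were KRT19 with the mean of its probe sets (-0.15, adjusted p = 0.163) and NQO2 (below). Leaving out probe sets named _x_at or _s_at, 36 members were left, 22 were called and 6 were lower. The 9 members that dropped out had all been called. Against 9083 genes called in the main fit, 6903 were called under this setting. Under it the sign turned for AKR1C1 (0.0016), AKR1C2 (0.16), GSTM3 (-0.32), ABCC3 (0.14), GCLC (0.020) and NQO2 (-0.11), each on another, dimmer probe set; the cause was not tested. Members not called also turned sign, near 0, with quantile normalization (PGD -0.078, GPX2 0.0088, SOD2 -0.00073), with median centring (GCLC 0.032, GPX2 0.0036) and with the mean of probe sets (PGD -0.042). Leaving out 1 array gave -0.11 to 0.040 for OSGIN1, -0.18 to 0.060 for GPX2, -0.11 to 0.27 for SOD2, -0.051 to 0.026 for GCLC and -0.0071 to 0.034 for PGD. It gave 32 to 35 called members, 20 to 22 higher and 11 to 13 lower, beside 7975 to 9492 called genes. Fitting every probe set called 19582 of 54613. The PRDX6 call was lost with quantile normalization (0.17, adjusted p = 0.0765). With the mean of probe sets, these kept their call but moved by over 1.5 times: PRDX3 (0.37), AKR1C1 (-0.28), GSTM3 (0.35), ABCC3 (-0.63), BACH1 (-0.69), SQSTM1 (-0.58), GSTO2 (-0.81), NQO2 (0.57) and PECAM1 (0.22).

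The replicate block called 33 members, 21 higher and 12 lower, and 8090 genes; the PRDX6 call was lost (adjusted p = 0.0792). Same-numbered arrays did not deviate together (correlations -0.02, -0.26 and -0.38), and 0 of 3 PC-3/Mc arrays correlated best with their own number. The values thus gave no sign that the numbers pair the samples, but 3 arrays per line are too few to exclude it. Groups of 3 are too small for a test of outlying arrays. Signal near the floor of 5.18 limits GPX3, ABCC2 and the dim probe sets. Readings near or under those of KLK3 are limited as well. They include OSGIN1, GPX2 and SOD2 in both lines, AKR1B10 in PC-3/S and GSTM4 in PC-3/Mc.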
